A study of Mus musculus with 9 samples.

Results

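The interferon regulatory factors (IRFs) are a family of transcription factors, and 8 of them (Irf1, Irf2, Irf3, Irf4, Irf5, Irf7, Irf8 and Irf9) were followed here in sorted monocytes of an NMO-like mouse model. They were taken by gene symbol from 23238 symbols, and all 8 were among the 10107 genes that passed the filter on low counts. The family was chosen by a measured value of these libraries, the lower Irf8 count of the brain monocytes, so the brain comparisons of its members are given as a description with no test. Neuromyelitis optica (NMO) is an autoimmune disease in which antibodies against the astrocyte water channel aquaporin-4 (NMO-IgG) damage astrocytes, and the study asked what the monocytes that enter such a lesion express. The question addressed here is how the levels of the IRF genes in those brain monocytes compared with the levels in blood monocytes.

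The 9 libraries came from wild-type mice (the study used adult female C57BL/6N mice), with 3 libraries in each of 3 groups and a pool of 5 mice behind each library. Nor_Bl_mono were blood monocytes of untreated normal mice. NMO_Bl_mono were blood monocytes and NMO_Br_mono brain monocytes of mice given NMO-IgG with human complement into the striatum of one side, taken on day 1. Blood cells passed a density gradient and brain cells an enzymatic dissociation, and in both tissues CD45+ CD11b+ P2ry12- Ly6C+ Ly6G- cells were sorted. No library of mice injected with control IgG was analysed here, and a brain library of normal mice was not analysed here either. NMO_Br_mono against NMO_Bl_mono therefore differed in tissue and in cell preparation together, and NMO_Br_mono against Nor_Bl_mono differed in mouse group as well. Both comparisons share the same brain libraries.

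IRFs bind DNA through a common domain that recognises GAAA elements, and they are best known for switching on type I interferons and the genes that interferons induce. Irf3, Irf7 and Irf5 are activated by kinases downstream of nucleic acid sensors, Irf9 is part of the complex that answers type I interferon, and Irf1 and Irf2 bind many of the same elements with largely opposite effects. Irf4 and Irf8 are the members that depend most on partners such as PU.1 and BATF, and they act in the development of blood cells. Irf8 is required for the formation of monocytes and dendritic cells from their progenitors, and it is also made by B cells and by microglia.

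Total counts per library ranged from 7584649 to 10419647, and a count of 3, taken as the floor of a library, was worth 0.273 to 0.432 CPM (read counts scaled to a common library size with TMM factors). The third NMO_Bl_mono library stood apart, with counts for 4567 genes against 6473 to 11556 in the other 8. It held 3 counts or fewer for 22.3% of the 2522 genes that were at 50 CPM or more in both other libraries of its group, against 8.26% in the second NMO_Br_mono library and less in every other. Of the 72 member values (8 genes in 9 libraries), 10 were at 3 counts or fewer, and 4 of these 10 were in the third NMO_Bl_mono library. Irf1, Irf2 and Irf8 were never that low. For the labelled cell type, 10 markers of classical monocytes had counts in every group. Their summed level was 5002 to 6822 CPM in Nor_Bl_mono, 3871 to 7853 CPM in NMO_Bl_mono and 5151 to 9223 CPM in NMO_Br_mono. These sums do not measure purity. Markers of natural killer cells summed to 2134 to 3417 CPM in the blood libraries. In the third NMO_Bl_mono library they reached 3417 CPM, beside 3871 CPM for the monocyte markers.

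Irf8 was lower in every brain library than in every blood library. In Nor_Bl_mono it measured 1642, 1290 and 1557 CPM, with a mean of 1496 ± 184 (SD, n = 3). NMO_Bl_mono gave 1279, 1431 and 1877 CPM, a mean of 1529 ± 311. In NMO_Br_mono the values were 265, 137 and 192 CPM, with a mean of 198 ± 64.4. The blood groups overlapped each other, and the brain group lay apart from both: the lowest blood library was 4.82-fold above the highest brain library, and the highest blood library was 13.7-fold above the lowest brain library. The counts behind these values were 9129 to 20652 reads in blood libraries and 1440 to 2346 reads in brain libraries, so Irf8 was far from the floor in each.

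**Figure D1:**
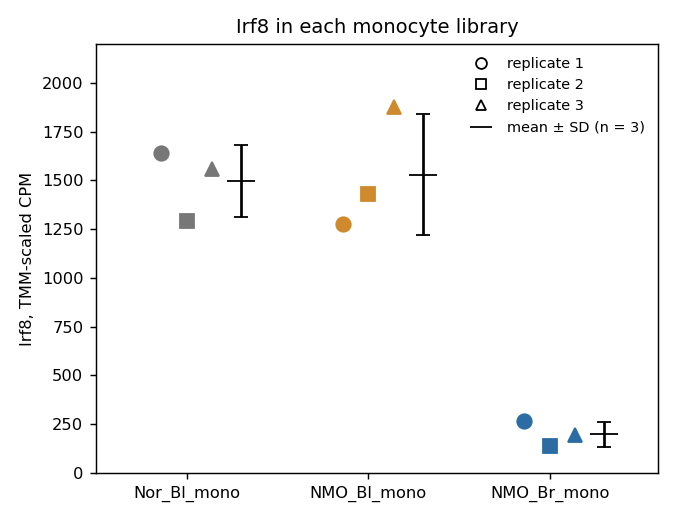
Irf8 level in TMM-scaled CPM (linear axis from 0) in each of the 9 monocyte libraries, by group; symbols mark the replicate number and bars the mean ± SD of 3 libraries. The 6 blood libraries sit between 1279 and 1877 CPM and the 3 brain libraries between 137 and 265 CPM.

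The fitted log2 difference of Irf8 was -2.95 (SE 0.34) for NMO_Br_mono against NMO_Bl_mono, a 7.72-fold lower level, and -2.92 (SE 0.34) for NMO_Br_mono against Nor_Bl_mono, a 7.55-fold lower level. Without the third NMO_Bl_mono library the first of these was -2.76. Across all genes tested, 25 of 10107 (0.247%) had an adjusted p under 0.05 by edgeR's quasi-likelihood test in NMO_Br_mono against NMO_Bl_mono, of which 23 were lower in brain, and 25 (0.247%) in NMO_Br_mono against Nor_Bl_mono, of which 22 were lower. Irf8 was the 1 member among the 25 in each comparison, which repeats the choice of the family and is no result about it. At the threshold of the study, an unadjusted p under 0.05 with a fold change of 1.2, the shares of all genes were 5.32% and 5.82%, and again 1 of the 8 members was included. That count moved with the libraries and the tool: against Nor_Bl_mono it was 3 (Irf1, Irf3 and Irf8) without the third Nor_Bl_mono library, and 2 by limma-voom with all libraries. Every NMO_Br_mono library was below all 6 blood libraries for 316 genes (3.13%), of which Irf8 was the 1 member; without the first NMO_Br_mono library 618 genes and 2 members, Irf7 and Irf8, lay below. In a bulk library, fewer cells that express a gene and less RNA of it per cell cannot be told apart.

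Markers of other cell types moved with Irf8. The summed level of 8 natural killer (NK) cell markers was 2134 to 2511 CPM in Nor_Bl_mono, 2510 to 3417 CPM in NMO_Bl_mono and 39.9 to 336 CPM in NMO_Br_mono, with counts for 8 of 8 markers in each group. The 8 platelet markers summed to 540 to 3259 CPM, 630 to 2721 CPM and 0 to 39.9 CPM in the same order, and Gp9 and Treml1 were at 0 in every brain library. The 8 erythroid markers summed to 937 to 4312 CPM, 1649 to 5431 CPM and 1.05 to 402 CPM, with Alas2, Slc4a1 and Hba-a2 at 0 in brain. The 6 T cell markers found in the files summed to 97.7 to 170 CPM, 31.9 to 109 CPM and 0 to 27.3 CPM, with Cd3e at 0 in brain and Cd5 at 0 in both NMO groups. These lists were higher in blood, as Irf8 was, and their part in the Irf8 difference was not tested.

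Marker lists of cell types known for high Irf8 did not share 1 direction. Of 10 microglial markers, 5 had counts in Nor_Bl_mono (Tmem119, Sall1, Gpr34, Olfml3 and Fcrls at 0), 6 in NMO_Bl_mono and all 10 in NMO_Br_mono, with summed levels of 143 to 396 CPM, 0.0909 to 244 CPM and 832 to 976 CPM. Conventional dendritic cell markers summed to 769 to 1047 CPM, 84.8 to 834 CPM and 1154 to 2851 CPM, with Batf3 at 0 in brain. Both of these list sums were higher in every brain library than in every blood library, opposite to Irf8. The dendritic cell sum leaned on 1 gene, H2-Ab1, which averaged 570 CPM over the 6 blood libraries. Batf3, of the same list, averaged 12.2 CPM there and so went the other way. Plasmacytoid dendritic cell markers overlapped between the groups (188 to 316 CPM, 87.7 to 247 CPM and 136 to 405 CPM, with Klk1 at 0 throughout), and so did the 7 B cell markers found (1.16 to 135 CPM, 0 to 105 CPM and 10.5 to 45.3 CPM, with Pax5 at 0 throughout). Of the remaining lists, neutrophil markers were higher in brain (370 to 1717 CPM, against 59.9 to 256 CPM in the blood libraries of both groups), while non-classical monocyte markers (765 to 1909 CPM over all libraries) and border-associated macrophage markers (70.1 to 562 CPM, Folr2 at 0) overlapped.

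The genes whose pattern was most like that of Irf8 were Cbx7, Gem, Spn, Klrc1 and Il18rap, with Pearson correlations of log2(CPM + 1) of 0.99, 0.98, 0.98, 0.98 and 0.98 over the 9 libraries, among 2916 genes with a mean of at least 50 CPM. The 9 points are 3 groups of 3 libraries, so these values mainly describe the blood and brain separation, and no p is given. Cbx7, a subunit of a Polycomb repressive complex, averaged 114 CPM in Nor_Bl_mono, 123 CPM in NMO_Bl_mono and 0.559 CPM in NMO_Br_mono. Spn, which encodes the leukocyte surface protein CD43, averaged 306, 297 and 59.0 CPM. It is also 1 of the 8 non-classical monocyte markers, whose sum overlapped between the groups although Spn was lower in brain. Klrc1, which encodes the receptor chain NKG2A of NK cells, averaged 92.8, 157 and 2.03 CPM, and Il18rap, a chain of the interleukin-18 receptor, averaged 204, 140 and 0.565 CPM. Gem, a small GTP-binding protein, averaged 69.3, 97.8 and 0.0317 CPM. Within the family, correlations with Irf8 ran from -0.65 for Irf3 to 0.62 for Irf7.

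Irf8 lies on the forward strand at chr8:120736358-120756694 (GRCm38, the assembly also called mm10), and a long readthrough model, Gm20388, spans it in the annotation but is not listed in the count files. The 250 bases before its first start site, chr8:120736108-120736357, are shown because interferon-gamma acts through elements of the form TTCNNNGAA (GAS elements), and Irf8 and Irf1 are both known targets of that signal. From RefSeq (GRCm38.p6), with matches to that pattern in capitals:

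Irf8: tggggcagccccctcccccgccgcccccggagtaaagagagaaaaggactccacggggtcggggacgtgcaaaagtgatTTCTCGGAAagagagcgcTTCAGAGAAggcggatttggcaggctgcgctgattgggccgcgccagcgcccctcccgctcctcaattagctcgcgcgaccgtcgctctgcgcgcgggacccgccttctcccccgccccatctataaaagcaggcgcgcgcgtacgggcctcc

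Irf1: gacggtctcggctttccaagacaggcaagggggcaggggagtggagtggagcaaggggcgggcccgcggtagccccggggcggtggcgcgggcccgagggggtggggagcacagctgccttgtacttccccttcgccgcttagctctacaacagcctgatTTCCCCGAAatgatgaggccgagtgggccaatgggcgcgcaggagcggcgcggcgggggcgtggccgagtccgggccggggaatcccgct

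The Irf8 sequence held 2 matches, TTCTCGGAA with its first base at -171 from the start site and TTCAGAGAA at -153. The Irf1 sequence (chr11:53769764-53770013, forward strand) held 1, TTCCCCGAA at -90. This pattern reads the same on both strands and occurred in 8.3% of 32851 promoter windows of 300 bases (250 before to 50 after a start site). The paired IRF pattern GAAANNGAAA, searched on both strands, was found in 3.44% of all windows and the ETS-IRF pattern GGAANNGAAA in 2.72%, and neither was found in the windows of Irf8 or Irf1. A match describes the letters and not a bound site.

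Irf4, the closest relative of Irf8 and a factor of lymphocytes and of some dendritic cells and macrophages, was detected unevenly, with 4 of 9 values at 3 counts or fewer. It measured 20.6, 0.740 and 0 CPM in Nor_Bl_mono, 1.68, 6.42 and 0 CPM in NMO_Bl_mono, and 0, 0 and 35.9 CPM in NMO_Br_mono. In each group 1 library carried most of the signal, and the groups overlapped. The fitted log2 difference was 2.14 (SE 3.61) against NMO_Bl_mono and 0.75 (SE 3.48) against Nor_Bl_mono. The third NMO_Br_mono library held all of the brain counts, and the other 2 brain libraries had none.

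**Figure D2:**
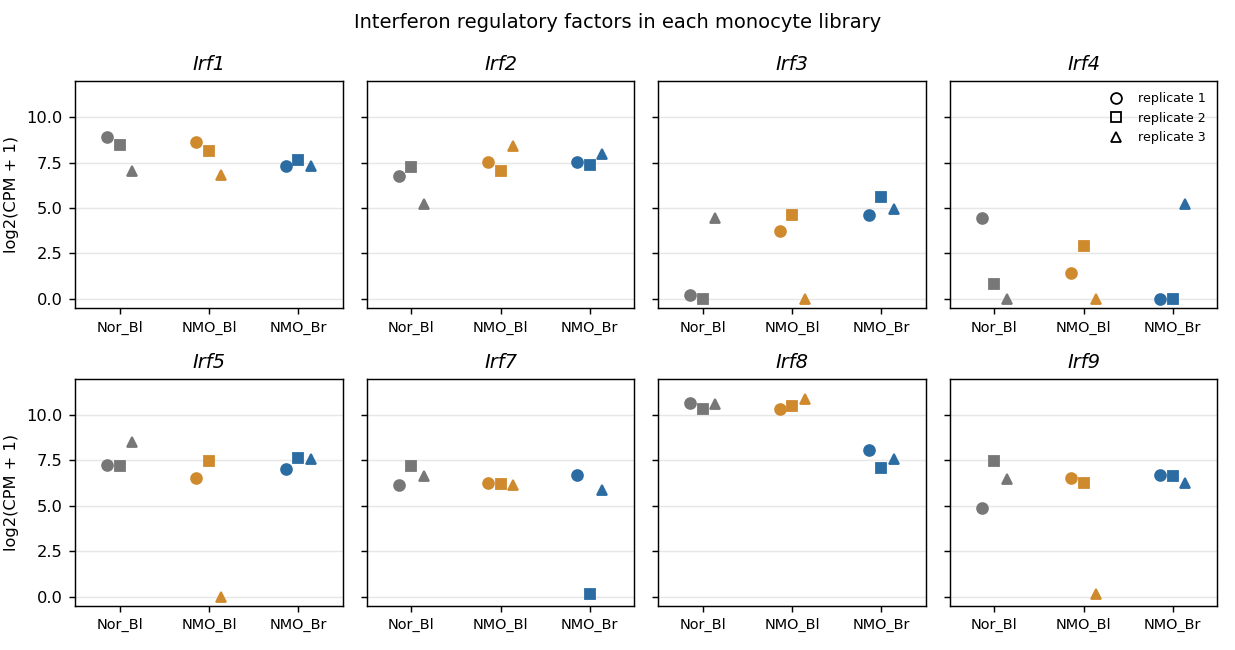
Level of each of the 8 IRF genes, as log2(CPM + 1), in each library of the 3 monocyte groups; symbols mark the replicate number. Irf8 is the 1 gene whose brain libraries all lie below its 6 blood libraries, and several values at or near 0 belong to the third NMO_Bl_mono library.

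Irf3, the latent factor that the kinase TBK1 activates downstream of MAVS, STING and TRIF, had its highest values in brain. It was counted at 0.144, 0 and 21.1 CPM in Nor_Bl_mono, at 12.2, 23.5 and 0 CPM in NMO_Bl_mono and at 23.9, 47.0 and 30.1 CPM in NMO_Br_mono. The lowest brain library, at 23.9 CPM, was just above the highest blood library, at 23.5 CPM, and 3 of the 6 blood values were at the floor. Every brain library was above all blood libraries for 361 of 10107 genes (3.57%), of which Irf3 was the 1 member. When counts were scaled by total counts only, without TMM factors, Irf3 overlapped between the groups, since the lowest brain library then measured 20.3 CPM and the highest blood library 23.6 CPM. The log2 difference was 1.50 (SE 2.65) against NMO_Bl_mono and 2.24 (SE 2.72) against Nor_Bl_mono, less than its SE in each case. The start of Irf3 overlaps Bcl2l12 on the other strand, and strand use in the counting is not given in the sources used here.

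Irf7, which interferon itself induces and which amplifies the type I response, measured 69.6, 147 and 98.1 CPM in Nor_Bl_mono, 76.3, 71.9 and 70.8 CPM in NMO_Bl_mono, and 104, 0.0951 and 56.6 CPM in NMO_Br_mono. The second brain library, with 1 read's worth of signal, stood apart from the other 8, and the groups overlapped. Fitted log2 differences were -0.45 (SE 1.30) and -0.97 (SE 1.31) against NMO_Bl_mono and Nor_Bl_mono. Without that brain library the first was 0.15. The 3′ end of Irf7 overlaps the end of Phrf1 on the other strand, which matters for a 3′ library counted without strand.

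Irf5, which acts downstream of TLR7 and MyD88 and drives inflammatory cytokine genes in macrophages, gave 153, 146 and 358 CPM in Nor_Bl_mono. In NMO_Bl_mono it gave 93.3, 174 and 0 CPM, and in NMO_Br_mono 132, 196 and 190 CPM. Brain values lay inside the range of blood values. Its log2 difference was 0.95 (SE 1.31) against NMO_Bl_mono, which was 0.38 without the library at 0, and -0.35 (SE 1.30) against Nor_Bl_mono. The 3′ end of Irf5 overlaps Tnpo3 on the other strand.

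Irf9, the DNA-binding subunit of that type I interferon complex, was counted at 27.9, 177 and 89.7 CPM in Nor_Bl_mono, at 92.2, 76.0 and 0.0909 CPM in NMO_Bl_mono and at 104, 98.6 and 76.1 CPM in NMO_Br_mono. The brain libraries again fell inside the blood range. Log2 differences were 0.73 (SE 1.33) against NMO_Bl_mono, or 0.16 without the third library of that group, and -0.08 (SE 1.33) against Nor_Bl_mono.

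Irf1, an activator induced by interferon-gamma, was 488, 358 and 133 CPM in Nor_Bl_mono, 391, 285 and 112 CPM in NMO_Bl_mono, and 161, 196 and 157 CPM in NMO_Br_mono. The mean was lowest in brain, at 171 ± 21.6 CPM against 327 ± 180 and 263 ± 141 CPM (SD, n = 3 each), but the third library of each blood group was below all brain libraries. The log2 difference was -0.62 (SE 0.58) against NMO_Bl_mono and -0.93 (SE 0.58) against Nor_Bl_mono. Irf1 thus varied more among blood libraries than between the group means.

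Irf2, a repressor that competes with Irf1 at many elements, ran at 110, 151 and 36.3 CPM in Nor_Bl_mono, 188, 129 and 341 CPM in NMO_Bl_mono, and 185, 164 and 251 CPM in NMO_Br_mono. Both NMO groups averaged higher (219 ± 110 CPM in blood and 200.0 ± 45.5 CPM in brain) than Nor_Bl_mono (99.2 ± 58.3 CPM). All brain libraries exceeded all Nor_Bl_mono libraries, with a log2 difference of 1.01 (SE 0.64), while they overlapped NMO_Bl_mono, with a log2 difference of -0.13 (SE 0.63). The 250 bases before the start of Irf2, chr8:46739495-46739744 on the forward strand (RefSeq, GRCm38.p6), are shown because this was the 1 member with matches to all 3 patterns (capitals):

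Irf2: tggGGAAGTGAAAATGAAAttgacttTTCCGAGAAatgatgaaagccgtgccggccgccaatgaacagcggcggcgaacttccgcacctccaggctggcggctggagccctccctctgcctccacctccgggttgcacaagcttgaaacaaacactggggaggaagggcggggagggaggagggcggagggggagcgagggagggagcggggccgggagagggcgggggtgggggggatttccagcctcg

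The paired IRF match GAAAATGAAA began at -241 and overlapped the ETS-IRF match GGAAGTGAAA at -247, and the GAS-type match TTCCGAGAA began at -224. The windows of Irf3, Irf4, Irf5, Irf7 and Irf9 held none of the 3 patterns.

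Summed over the 7 members other than Irf8, the level was 869, 980 and 736 CPM in Nor_Bl_mono, 855, 766 and 524 CPM in NMO_Bl_mono, and 710, 701 and 797 CPM in NMO_Br_mono. The brain libraries lay within the range of blood libraries, the lowest of which was the third NMO_Bl_mono library.

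**Figure D3:**
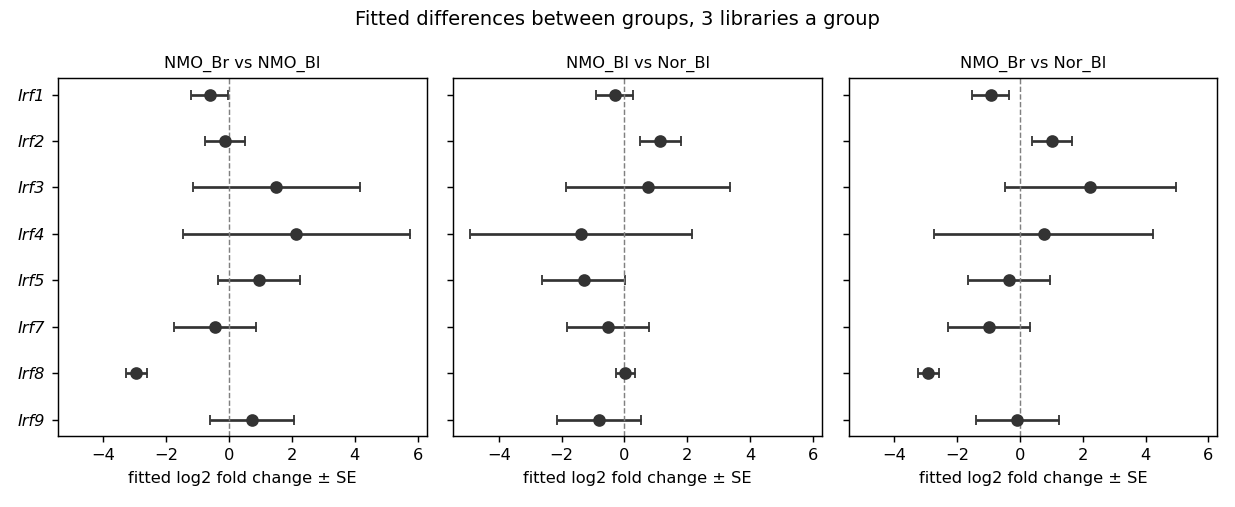
Fitted log2 difference of each IRF gene in the 3 comparisons, as points with bars of ± 1 SE, from 1 fit over 9 libraries. Irf8 lies at -2.95 and -2.92 with SE 0.34 in the brain comparisons and at 0.03 in the blood comparison, and the bars of Irf3 and Irf4 span more than 2 log2 units on either side.

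The comparison of NMO_Bl_mono with Nor_Bl_mono asks whether circulating monocytes differed between injected and untreated mice, and it was not used to choose the family. Anaesthesia, surgery, injection and lesion came together in the injected mice and cannot be told apart here. No member passed the test: 0 of 8 had an adjusted p under 0.05 by edgeR, DESeq2 or limma-voom, and at an unadjusted p under 0.05 the counts were 0, 0 and 1. Among all genes tested edgeR called 0 of 10107 (0.00%) after adjustment and 72 (0.712%) at the threshold of the study, none of them a member. DESeq2 called 72 genes after adjustment and limma-voom 1. Irf2 had the log2 difference that was largest beside its SE, 1.14 (SE 0.64, adjusted p = 1, edgeR), with higher values in NMO_Bl_mono.

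Irf8 differed by a log2 value of 0.03 (SE 0.32) between the blood groups, with a 95% interval of -0.65 to 0.71 (adjusted p = 1, edgeR). The interval leaves room for a change of either sign, but it stops short of the size seen in brain. The other 6 members had log2 differences of -0.31 (SE 0.58) for Irf1, 0.74 (SE 2.61) for Irf3, -1.39 (SE 3.53) for Irf4, -1.30 (SE 1.32) for Irf5, -0.52 (SE 1.30) for Irf7 and -0.81 (SE 1.34) for Irf9, all with an adjusted p = 1 by edgeR. For none of the 8 members did the blood groups separate without overlap, against 687 of 10107 genes (6.80%). No separation of the blood groups was detectable at this spread for any IRF gene.

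The members differed in how steady they were in blood. Over the 6 blood libraries the SD of log2(CPM + 1) was 0.214 for Irf8, and 2.49% of 2931 genes at 50 CPM or more in blood had a smaller SD, the median being 0.759. The highest blood library was 1.47-fold above the lowest. Irf7 was steadier than most of these genes (18.5% had a smaller SD), Irf1 and Irf2 were near the middle (57.2% and 65.8%), and Irf9 and Irf5 were among the most variable (90.1% and 98.0%), each with 1 library of NMO_Bl_mono at or near 0. Genes were not matched for level in this ranking. Irf8 was also chosen for a difference between these libraries and brain, which a small spread in blood makes easier to see. Its rank is thus a description and no separate result.

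**Figure D4:**
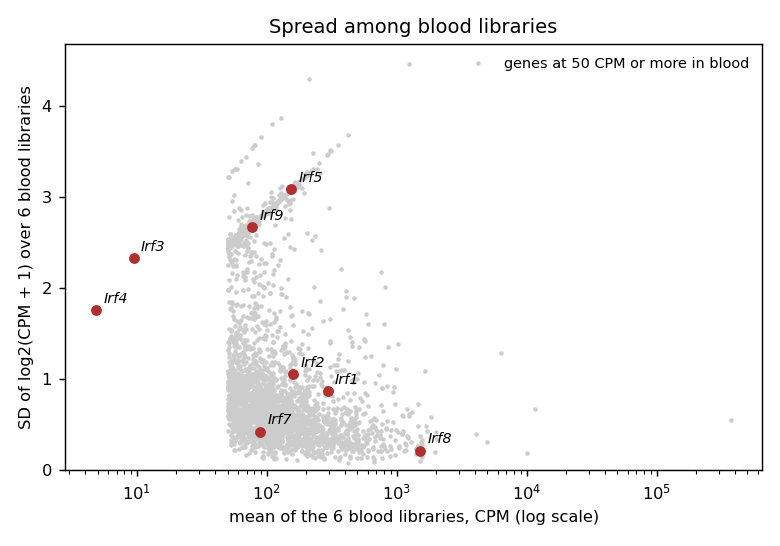
SD of log2(CPM + 1) over the 6 blood libraries against the mean blood level in CPM (log axis), with grey points for 2931 genes at 50 CPM or more in blood and red points for the 8 members; Irf3 and Irf4 lie below that level. Irf8 has an SD of 0.214, near the lower edge of the grey points, and Irf5 and Irf9 lie in the upper band.

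Genes around the IRFs in the pathway were followed by 5 lists, of which 68 genes were tested (Zbp1 is in 2 of the lists). By edgeR, 0 of these 68 had an adjusted p under 0.05 in any comparison, and at an unadjusted p under 0.05 the counts were 5 for NMO_Br_mono against NMO_Bl_mono, 0 between the blood groups and 8 for NMO_Br_mono against Nor_Bl_mono. These are 7.35%, 0% and 11.8% of the 68, beside 5.32%, 0.712% and 5.82% of all genes tested. DESeq2 called 2 pathway genes, Ifng and Ikzf3, in each brain comparison and 0 between the blood groups, and limma-voom called 2 (Ifngr1 and Ikzf3), 0 and 1 (Ifngr1). The median log2 difference of all genes tested was 0.05, -0.16 and -0.12 in the order NMO_Br_mono against NMO_Bl_mono, NMO_Bl_mono against Nor_Bl_mono and NMO_Br_mono against Nor_Bl_mono. List medians below are given in this order and read beside those values.

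Upstream, the sensors, adaptors and kinases that activate IRFs (18 of 21 tested) had medians of -0.14, -0.18 and -0.21, and 8, 8 and 5 of the 18 were above 0. Without the third NMO_Bl_mono library the blood median was 0.12, with 12 of 20 genes above 0. At the threshold of the study 1 rose and 1 fell, both in NMO_Br_mono against Nor_Bl_mono. The gene that rose, Tmem173, encodes the STING adaptor upstream of IRF3, and it measured 23.7, 2.01 and 0.715 CPM in Nor_Bl_mono, 43.0, 60.9 and 52.1 CPM in NMO_Bl_mono, and 66.0, 119 and 58.0 CPM in NMO_Br_mono. All NMO libraries of either tissue were above all Nor_Bl_mono libraries, a separation that was not counted over all genes. The log2 difference of 3.20 (SE 1.45) in brain against Nor_Bl_mono had an adjusted p of 0.708 by edgeR. The difference between the blood groups, 2.56 (SE 1.41), had an adjusted p = 1. Mavs, the adaptor of the RNA sensors, measured 0, 11.9 and 22.5 CPM in Nor_Bl_mono, 13.4, 8.81 and 0 CPM in NMO_Bl_mono and 0 in all brain libraries, so 2 of the 6 blood libraries were at 0 as well. Tbk1, the kinase that activates IRF3, was lower in every brain library (14.6, 4.38 and 21.3 CPM) than in every blood library (29.4 to 90.1 CPM). Of all genes tested, 3.13% lay below in this way. Myd88, the adaptor upstream of IRF5 and IRF7, averaged 56.0 ± 50.5, 129 ± 8.18 and 196 ± 81.5 CPM in the order of the groups, and its log2 difference in brain against Nor_Bl_mono was 1.81 (SE 0.94, adjusted p = 0.724, edgeR). Irak1, Zbp1 and Ifih1, the other well-counted genes of this list, had log2 differences between -1.19 and -0.07 in the brain comparisons, with an adjusted p = 1.

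The interferons, their receptors and the JAK-STAT relay (14 of 15 tested) had medians of -0.13, 0.09 and 0.07. At the threshold of the study 3 genes were lower in each brain comparison, Ifng, Ifngr1 and Jak1, and 0 were higher. Ifngr1, the ligand-binding chain of the interferon-gamma receptor, measured 648, 843 and 718 CPM in Nor_Bl_mono, 683, 717 and 955 CPM in NMO_Bl_mono, and 332, 328 and 229 CPM in NMO_Br_mono. Every brain library was below every blood library, and the log2 difference was -1.41 (SE 0.34, adjusted p = 0.209, edgeR) against NMO_Bl_mono and -1.31 (SE 0.34, adjusted p = 0.258) against Nor_Bl_mono. Jak1, the kinase bound to that receptor and to the type I receptor, showed the same separation, at 761 to 1185 CPM in blood and 352 to 523 CPM in brain, with log2 differences of -1.28 (SE 0.34, adjusted p = 0.316, edgeR) and -1.08 (SE 0.34, adjusted p = 0.514). Ifng, the cytokine itself and a product of NK and T cells, measured 148, 54.6 and 17.8 CPM in Nor_Bl_mono, 102, 46.0 and 0 CPM in NMO_Bl_mono, and 0, 0.0951 and 0 CPM in NMO_Br_mono, which was 1 read in 3 libraries (adjusted p = 0.333 and 0.258 in the brain comparisons, edgeR). The NK and T cell marker lists moved in the same direction, and their part in the Ifng values was not tested. Socs3 and Ptpn6, which restrain this signalling, had log2 differences from -0.23 to 0.41 in the brain comparisons.

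Partners and co-regulators of IRF4 and IRF8 (13 of 14 tested) had medians of -0.49, -0.18 and 0.15, and at the threshold of the study 2 were lower in each brain comparison, Ikzf3 and Irf2bp1 against NMO_Bl_mono, and Ikzf3 and Batf3 against Nor_Bl_mono. Irf2bp1 measured 1.40, 45.2 and 0 CPM in NMO_Bl_mono and 0 in all brain libraries, so most of its blood signal was in the second NMO_Bl_mono library. Spi1, which encodes PU.1, the main partner of IRF8 in myeloid cells, did not follow Irf8. It averaged 269 ± 62.7 CPM in Nor_Bl_mono, 193 ± 108 CPM in NMO_Bl_mono and 378 ± 211 CPM in NMO_Br_mono, with a log2 difference of 0.97 (SE 0.57, adjusted p = 0.893, edgeR) against NMO_Bl_mono. Irf2bp2, a co-repressor named for binding IRF2, was higher in each brain library than in any blood library, at 433, 512 and 356 CPM against 33.9 to 292 CPM, with a log2 difference of 1.22 (SE 0.63, adjusted p = 0.802, edgeR) against NMO_Bl_mono. Ikzf3, which encodes the lymphoid factor Aiolos, was at 0 in all 3 brain libraries against 27.0 ± 7.63 CPM in Nor_Bl_mono and 70.3 ± 65.2 CPM in NMO_Bl_mono. Against a floor of 3 counts per library, Ikzf3 was at least 228-fold lower than in NMO_Bl_mono (adjusted p = 0.0848, edgeR) and at least 87-fold lower than in Nor_Bl_mono (adjusted p = 0.132). The first bound rested on the third NMO_Bl_mono library (145 CPM, against 42.4 and 23.7 CPM in the other 2), and without it was 106-fold (adjusted p = 0.220, edgeR). Its relative Ikzf1 averaged 293, 259 and 135 CPM, with log2 differences of -0.94 (SE 0.55) and -1.12 (SE 0.55) in the brain comparisons. Cebpb, a myeloid factor, differed by 0.08 (SE 0.60) on the log2 scale against NMO_Bl_mono.

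**Figure D5:**
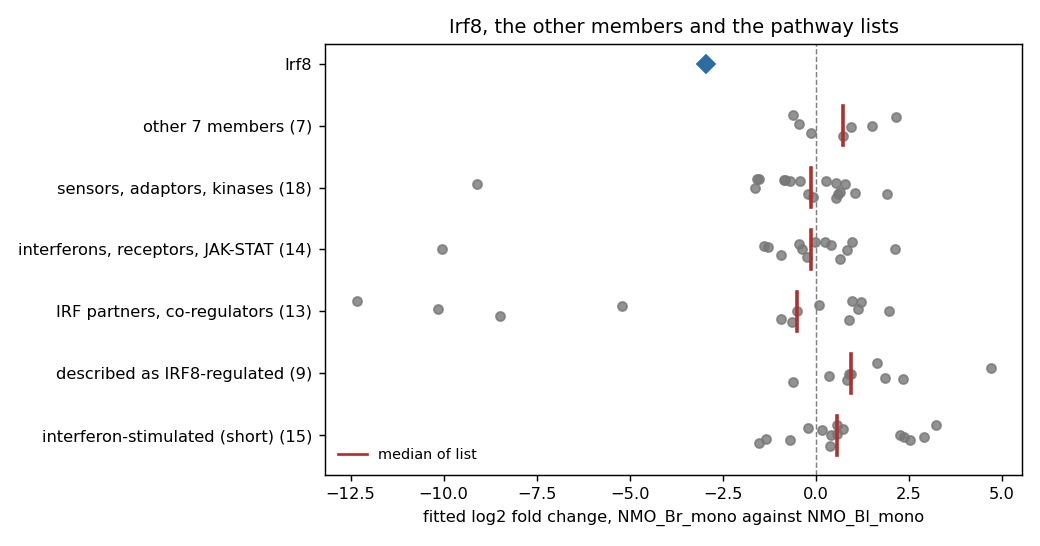
Fitted log2 difference of NMO_Br_mono against NMO_Bl_mono for Irf8 (diamond), the 7 other members and each tested gene of the 5 pathway lists, with the number of genes in brackets and the median as a red line. Irf8 lies at -2.95, while the medians of the lists run from -0.49 to 0.95; points below about -5 are genes at or near 0 counts in brain, whose fitted values depend on the prior count.

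Genes described as regulated by IRF8 in myeloid cells (9 of 14 tested) had medians of 0.95, -0.61 and 0.34, and 8, 2 and 6 of the 9 were above 0. Without the third NMO_Bl_mono library the blood median was -0.23, with 4 of 10 above 0. None passed the test after adjustment. Cybb, the membrane subunit of the phagocyte NADPH oxidase and a gene that IRF8 is known to activate, measured 1527, 1757 and 1098 CPM in Nor_Bl_mono, 1335, 1642 and 528 CPM in NMO_Bl_mono, and 1005, 770 and 513 CPM in NMO_Br_mono. It was the 1 gene of the list past the threshold of the study, with a log2 difference of -0.94 (SE 0.41, adjusted p = 0.708, edgeR) in NMO_Br_mono against Nor_Bl_mono. Klf4, a factor that acts after Irf8 in monocyte development, averaged 539 ± 158, 353 ± 115 and 681 ± 313 CPM, and its log2 difference of 0.95 (SE 0.45) against NMO_Bl_mono had an adjusted p = 0.802 by edgeR. Cst3, which encodes cystatin C, averaged 1111 ± 335, 751 ± 424 and 1340 ± 377 CPM (log2 difference 0.84, SE 0.45, adjusted p = 0.811, edgeR). Against NMO_Bl_mono, where Irf8 was 7.72-fold lower, 8 of the 9 genes were thus above 0 and Cybb was below. Without the third NMO_Bl_mono library 8 of 10 were above 0 there, with a median of 0.72. The list was not divided by the direction in which IRF8 regulates each gene, so the counts above 0 have no set direction to be read against. The part of Irf8 in these values was not tested.

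Downstream, the short list of interferon-stimulated genes (15 of 16 tested) had medians of 0.56, -0.40 and 0.56, and 11, 4 and 11 of the 15 were above 0. The third NMO_Bl_mono library held 3 counts or fewer for 11 of the 15, against at most 5 in any other library. Without it, 9, 7 and 11 of 16 tested were above 0, and the medians were 0.18, -0.27 and 0.53 beside -0.16, 0.07 and -0.10 for all genes. None passed either threshold in any comparison. Ifitm3, an antiviral membrane protein, averaged 1738 ± 172 CPM in Nor_Bl_mono, 1197 ± 620 CPM in NMO_Bl_mono and 1781 ± 629 CPM in NMO_Br_mono, where the value of the third NMO_Bl_mono library was 492 CPM and those of the other 2 were 1442 and 1657 CPM. Rsad2, which encodes viperin, measured 46.6, 23.2 and 0 CPM in NMO_Bl_mono and 128, 46.1 and 227 CPM in NMO_Br_mono, and Mx1 measured 18.1, 50.8 and 0 CPM and 98.2, 13.7 and 247 CPM. The log2 differences of Rsad2 and Mx1 in brain against NMO_Bl_mono, 2.52 (SE 1.55) and 2.38 (SE 1.58), had adjusted p-values of 0.954 and 1 by edgeR. Ifi204, a nuclear DNA sensor, differed by 0.38 (SE 0.70).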

How the data were processed

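RNA of sorted monocytes was sequenced as QuantSeq 3′ libraries. The authors aligned reads with Bowtie2 (build mm10 in the submitters' processing notes), counted reads per gene with the coverage tool of Bedtools, keeping reads with several alignments, and deposited these raw read counts. The versions, the annotation and the use of strand are not given in the sources used here. Counting multiple alignments leaves genes with near-identical copies uncertain.

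Each library lists 23282 entries. For 35 repeated symbols the entry with most counts was kept, which left 23238 symbols, 8796 without a count. edgeR 4.0.16 in R 4.3.3 was used as in the study for TMM factors and CPM. The quasi-likelihood test (glmQLFit, glmQLFTest) was fitted to all 9 libraries with group as the term, on 10107 genes passing filterByExpr, with Benjamini-Hochberg adjustment over all of them. Intervals and SE come from this fit, whose common dispersion was 2.87. A count of 3 was the floor. Libraries were grouped by their labels and fitted as unpaired, and each came from a pool of mice. Whether NMO blood and brain pools held the same mice is not stated in the sources used here. Gene by gene, deviations of same-numbered libraries from their group means had correlations of -0.0102 to 0.116. In each group the first library had the highest Rn45s share, at 43.6% in Nor_Bl_mono, 42.2% in NMO_Bl_mono and 39.3% in NMO_Br_mono. It also had the lowest TMM factor of its group (0.800, 0.831 and 0.855) and the most genes with counts.

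Members and lists were chosen with earlier results of these data known. Named were all members, the 4 highest genes of each list, and the 5 genes most correlated with Irf8. Tbk1 was named as the kinase of IRF3, and the other genes named beyond these passed the threshold of the study or another tool's test. All of them were named after their values were seen. A few genes that these rules name are not reported here. Alternatives were RLE factors, library sizes alone, other filters, only the groups compared, a replicate block, each library left out, DESeq2 1.42.0, limma-voom (limma 3.58.1), Rn45s removed (28.4 to 43.6% of counts) and repeated symbols summed. The edgeR fit was tested on simulated data. Coordinates are from GENCODE vM21 and promoters from RefSeq (GRCm38.p6).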

Additional observations from a re-analysis of the deposited data

How the results depend on the processing

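Over the 19 alternatives the Irf8 log2 difference in brain ran from -3.22 (without the first NMO_Br_mono library) to -2.72 (without the second) against NMO_Bl_mono. Against Nor_Bl_mono it ran from -3.19 to -2.69. Its direction adds no support, since Irf8 was chosen for this fall. With no overlap of brain and blood libraries, leaving a library out could not turn the sign. The blood difference of Irf8 ran from -0.14 to 0.14 when libraries were left out in turn. It changed sign without the second Nor_Bl_mono library (-0.07) and without the third NMO_Bl_mono library (-0.14), and its highest value was 0.31 with library sizes alone. Leaving out libraries also turned the blood difference of Irf1 (-0.72 to 0.10, and 0.05 without the third NMO_Bl_mono library), Irf3 (-0.22 to 7.18) and Irf4 (-3.06 to 2.83). No member passed the adjusted threshold between the blood groups under any alternative.

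Against the 25 genes called for NMO_Br_mono against NMO_Bl_mono, 110 were called with no filter, 16 with at least 10 counts in every library, 7 with only the groups compared, 334 by DESeq2 and 57 by limma-voom, and 15 to 36 when libraries were left out (15 without the third NMO_Br_mono and 16 without the third Nor_Bl_mono library). For NMO_Br_mono against Nor_Bl_mono the counts were 115, 367 and 54 with no filter, DESeq2 and limma-voom, and 11 to 62 when libraries were left out (11 without the third Nor_Bl_mono and 62 without the third NMO_Bl_mono library). Irf8, for whose fall the family was chosen, was among the calls in all of these except limma-voom, which called 0 members. Between the blood groups 2 genes were called with no filter, 72 by DESeq2 and 1 by limma-voom. Pathway genes called rose from 0 to 1 with library sizes alone, 2 with no filter, 2 by DESeq2 and 2 by limma-voom against NMO_Bl_mono, and to 2, 2 and 1 with no filter, DESeq2 and limma-voom against Nor_Bl_mono, and ran from 0 to 1 in both when libraries were left out (1 without the third NMO_Bl_mono library). The 316 genes with every brain library below all blood libraries became 128 with at least 10 counts in every library, where 2396 genes were tested, and 335 to 697 with fewer libraries (697 without the third NMO_Bl_mono, 618 without the first, where Irf7 joined Irf8, and 488 without the third NMO_Br_mono library). The values of the gene lists and of Ikzf3 without the third NMO_Bl_mono library, the members at an unadjusted p under 0.05 without each library, and the brain separation of Irf3 by scaling were computed after seeing the data. The causes of these shifts were not tested.

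Gene-wise deviations of same-numbered libraries were little correlated, but with 3 libraries a group they cannot exclude shared mice. The first libraries of the 3 groups had in common a high Rn45s share and a low TMM factor, and what lay behind this was not tested. With the replicate block the Irf8 log2 differences were -2.98 and -2.94, and 22 genes were called in each brain comparison. Limits: 3 libraries a group, a common dispersion of 2.87 and member values at the floor leave SEs above 1 log2 unit for Irf3, Irf4, Irf5, Irf7 and Irf9, so that moderate changes of these genes were not detectable. CPM of a 3′ library were not compared between genes.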
